A study of Mus musculus with 4 samples.

Results

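The blood-testis barrier junction genes described here are 10 genes chosen by name, with earlier results of these data known. They include the claudins Cldn3, Cldn5 and Cldn11, occludin (Ocln), the plaque protein ZO-1 (Tjp1), connexin 43 (Gja1) and ezrin (Ezr). The rest are the junctional adhesion molecules Jam2, Jam3 and F11r. All 10 were found among the 32285 genes of the count tables. They were measured by droplet-based scRNA-seq in 2 libraries of mouse testicular organoids (TOs) and 2 libraries of mouse testes, all from ICR mice. TOs were grown from dissociated testis cells of neonatal pups, which formed spheroids, were embedded in a basement membrane extract and were cultured with FSH and testosterone. The series compares TOs at 28 days of culture with testes of 28-day-old mice, although the dissociation protocol in the labels names day 21 TOs. The TOs came from separate culture batches, but the labels do not tie a library to a batch, a culture or an animal, so p-values measure only the spread between libraries, and TO cells had also been dissociated and reassembled before culture.

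The barrier is built by Sertoli cells, the supporting cells of the seminiferous tubule, whose junctions divide the tubule into a basal part with spermatogonia and an adluminal part with meiotic and haploid germ cells. Claudins form the paracellular strands: Cldn11 is the main claudin of adult Sertoli cells, Cldn3 is linked to androgen action and to the new junctions that form on the basal side of spermatocytes moving toward the lumen, and Cldn5 is best known from endothelium. Occludin and the junctional adhesion molecules span the membrane beside them, ZO-1 ties both to actin, connexin 43 forms gap junctions, and ezrin links actin to the membrane.

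After doublet removal and filters, 37898 cells were kept. Libraries held 11826 to 14643 barcodes and 74988295 to 119966959 UMIs, with a median of 2549 to 7561 UMIs per kept cell, and pairs of libraries shared 30 to 55 barcodes. Cells were clustered without the 10 genes and named "-like" from other markers. Levels are UMIs of a gene per 1000000 UMIs of a type in a library (CPM), and were not divided by gene length. The part of gene length in the levels was not tested. Sertoli-like cells numbered 1455 and 633 in TOs and 339 and 114 in testes, and all 8 Sertoli markers were detected in each library, with summed levels of 7108 and 7701 CPM in TOs and 4831 and 5159 CPM in testes. These sums were mostly Aard (5281 and 5827 CPM in TOs, 3211 and 3484 CPM in testes). Sox9 was also higher in TOs (486 and 581 CPM, against 240 and 335 CPM in testes). So was Dhh (159 and 136 CPM in TOs, 103 and 116 CPM in testes). Fshr was lower in TOs (107 and 129.9 CPM, against 159 and 183 CPM in testes). Amh was lower too (4.59 and 1.12 CPM in TOs, 22.6 and 7.64 CPM in testes). For Wt1, Rhox8 and Gata1 the groups overlapped. TOs held 80 and 98 rete testis-like cells with Pax8 among their leading genes and no endothelial-like cells, while testes held 131 and 87 endothelial-like cells and no rete testis-like cells. RNA of spermatids was found in testis somatic cells: 5 elongating spermatid markers summed to 1764 and 2638 CPM in testis Sertoli-like cells and to 0.494 and 0.979 CPM in TO Sertoli-like cells. In other named testis somatic types the sums ran from 1587 CPM in Leydig-like to 6261 CPM in peritubular myoid-like cells. The part that such free RNA had in the results was not tested beyond the subtraction described with the alternatives. That subtraction was not run for the tests of whether the change in TOs differed between types.

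The 250 bases before the RefSeq start sites (GRCm38.p6) of Cldn3, Cldn11 and Ezr are shown because the 3 genes form the contrast between TO and testis Sertoli-like cells. The windows are chr5:134985964-134986213 on the plus strand, chr3:31149670-31149919 on the plus strand and chr17:6782781-6783030 on the minus strand, each printed 5′ to 3′ on the strand of its gene. Capitals mark the GC box GGGCGG on either strand.
Cldn3: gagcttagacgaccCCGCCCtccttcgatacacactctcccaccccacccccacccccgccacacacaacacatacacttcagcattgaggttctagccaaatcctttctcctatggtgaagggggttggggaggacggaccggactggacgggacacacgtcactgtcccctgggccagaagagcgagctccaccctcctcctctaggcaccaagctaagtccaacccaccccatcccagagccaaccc
Cldn11: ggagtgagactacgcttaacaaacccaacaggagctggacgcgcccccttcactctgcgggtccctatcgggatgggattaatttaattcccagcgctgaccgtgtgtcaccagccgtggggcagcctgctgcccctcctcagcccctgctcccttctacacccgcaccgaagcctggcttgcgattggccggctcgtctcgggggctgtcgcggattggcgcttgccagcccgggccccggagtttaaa
Ezr: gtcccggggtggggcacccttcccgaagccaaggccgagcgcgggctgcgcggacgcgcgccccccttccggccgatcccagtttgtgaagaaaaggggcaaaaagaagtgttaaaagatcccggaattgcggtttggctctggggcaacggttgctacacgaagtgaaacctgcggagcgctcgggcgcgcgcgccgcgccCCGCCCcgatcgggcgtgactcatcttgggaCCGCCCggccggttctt
The Cldn3 window held 1 GC box, the Ezr window 2 and the Cldn11 window 0, and their GC contents were 60.8%, 67.2% and 63.6%, against a median of 52.4% over 32851 promoters. Of 9 windows found for 8 of the 10 genes, 7 held a GC box, which 32.74% of all promoters hold. The 2 Ocln windows overlap and both count among them. GC content of the 9 windows ran from 50.0% (Gja1) to 69.2% (Ocln), and its part in the share with a box was not tested. Neither the androgen receptor half-site AGAACA nor the SOX core AACAAT, searched on both strands, was in any of the 9 windows, while 16.08% and 9.42% of all promoters hold them.

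In Sertoli-like cells, Cldn3 fell and Cldn11, Jam2, Jam3 and Ezr rose in TOs. Genes were called at an adjusted p below 0.01 with an absolute log2 fold change above 1 in edgeR's quasi-likelihood test on UMIs summed per library. Genes with 5 or more times as much CPM in the remaining cells of TOs or of testes as in the type were left out of the calls. Of the 10 genes, 9 passed the filter on low counts, and 4 were called higher and 1 lower in TOs, against 6.06% of all 13895 genes tested called higher and 10.2% called lower. The median log2 fold change was 0.88 over the 9 genes and 0.02 over all genes tested. The 10 genes were chosen with earlier results of these data known, so these comparisons with all genes give no separate support. The libraries of the 2 groups did not overlap for 5 genes that were higher in TOs and 2 that were lower, and this held for 31.6% and 40.5% of all genes tested.

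**Figure D1:**
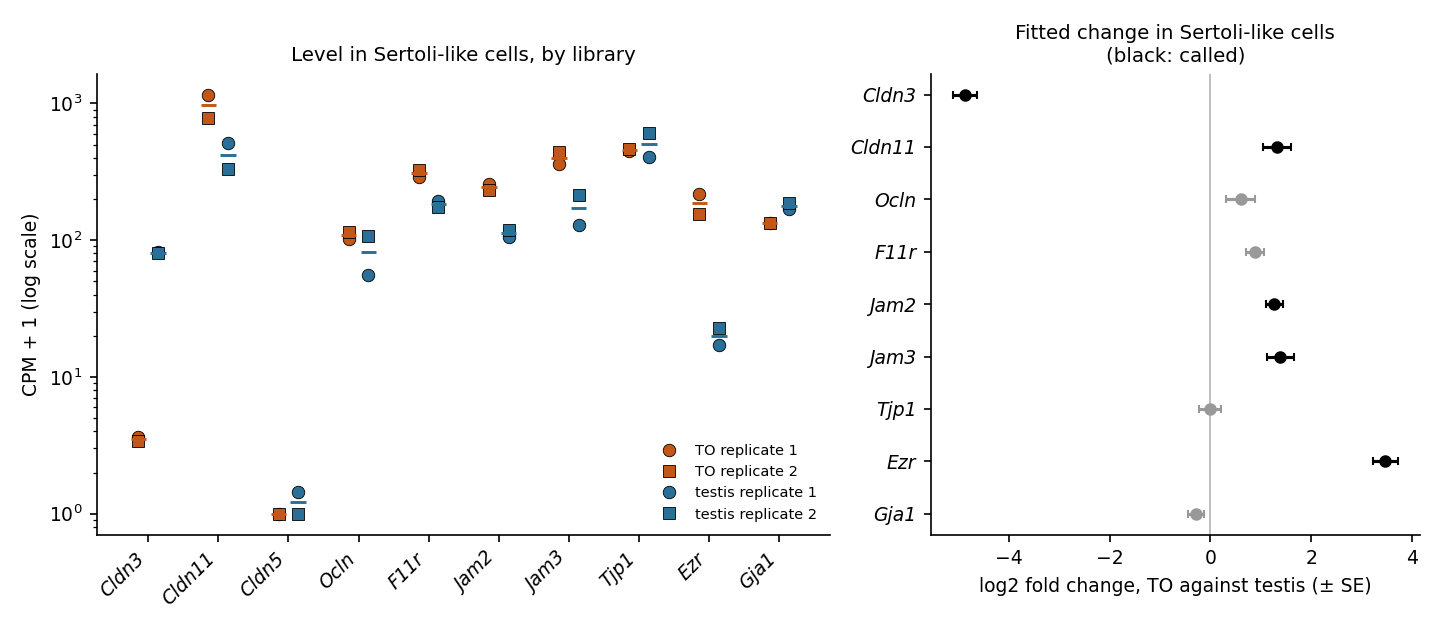
Left, the level of each gene in Sertoli-like cells on a log scale of CPM + 1, with 1 point per library and a bar at the mean of 2 libraries. Right, the fitted log2 fold change of TOs against testes with its SE, black where the gene was called: Cldn3 sits at -4.86 and Ezr at 3.46.

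Cldn3 (chromosome 5, 134986214 to 134987472, plus strand, GRCm38) had 2.61 and 2.38 CPM in TO Sertoli-like cells and 81.2 and 79.3 CPM in testis Sertoli-like cells. The groups did not overlap, and the 2 libraries of each group lay close together. The log2 fold change was -4.86 ± 0.23 (SE, 2 against 2 libraries, edgeR adjusted p = 5.52e-05). When each cell was named by its own marker score instead of by cluster, the value was -2.14 and the call was lost (edgeR adjusted p = 0.02). These levels rest on 37 and 17 UMIs in TOs and 187 and 83 in testes. In TOs the other cells had 3.17 times the CPM of Sertoli-like cells, so Cldn3 stood near the limit at which a gene was not counted.

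Cldn11 (chromosome 3, 31149920 to 31164324, plus strand) moved the other way. It had 1160.4 and 787 CPM in TO Sertoli-like cells and 509 and 332 CPM in testis Sertoli-like cells. The TO and testis libraries did not overlap, but the replicates of each group were farther apart than for Cldn3. The log2 fold change was 1.32 ± 0.27 (SE, edgeR adjusted p = 0.0069). The call was lost without TO replicate 1 (1.05, edgeR adjusted p = 0.0156) and without testis replicate 2 (1.05, edgeR adjusted p = 0.0173). It was also lost with own marker scores (1.26, edgeR adjusted p = 0.0101), with thinned sums (1.14, 0.011) and with background RNA subtracted (0.99, 0.122).

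Ezr (chromosome 17, 6738041 to 6782784, minus strand) showed the steepest rise of the 9 genes in the fit. It had 216 and 155 CPM in TO Sertoli-like cells and 16.1 and 22.0 CPM in testis Sertoli-like cells. The lowest TO library stood far above the highest testis library, with a log2 fold change of 3.46 ± 0.25 (SE, edgeR adjusted p = 9.76e-05). Ezr kept its call in each of the 19 alternative settings, in which the log2 fold change ranged from 3.21 to 3.65.

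The 3 junctional adhesion molecules, immunoglobulin-type proteins at the tight junction, were all higher in TO Sertoli-like cells, and 2 were called. Jam2 had 257 and 231 CPM in TOs and 105 and 118 CPM in testes (log2 fold change 1.27 ± 0.16, edgeR adjusted p = 0.000906). Jam3 had 361 and 441 CPM in TOs and 128 and 214 CPM in testes (1.39 ± 0.26, edgeR adjusted p = 0.00461). The groups did not overlap for either gene. F11r had 291 and 323 CPM in TOs and 191 and 174 CPM in testes, without overlap, and its log2 fold change of 0.88 ± 0.18 passed the p threshold (edgeR adjusted p = 0.00679) but not the fold threshold. Without testis replicate 1, the Jam3 call was lost (1.04, edgeR adjusted p = 0.0207).

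The remaining 4 genes were not called. Tjp1 had 450.3 and 461 CPM in TO Sertoli-like cells and 405 and 609 CPM in testis Sertoli-like cells, so the TO libraries lay between the testis libraries (log2 fold change -0.01 ± 0.22, edgeR adjusted p = 0.974). Ocln had 101 and 114 CPM in TOs and 54.3 and 107 CPM in testes, and the groups overlapped (0.60 ± 0.29, edgeR adjusted p = 0.131). Without testis replicate 2, Ocln was called (1.11, edgeR adjusted p = 0.0056). Gja1 had 133 and 132 CPM in TOs and 168 and 185 CPM in testes, a difference of -0.28 ± 0.16 that did not pass the test although the groups did not overlap (edgeR adjusted p = 0.191). Cldn5 was at 0 UMIs in both TO libraries and at 1 and 0 UMIs in testes, and was not tested.

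The contrast was also expressed within each library, where scaling between libraries plays no part. The log2 ratio of Cldn11 to Cldn3, on CPM + 1, was 8.33 and 7.87 in TO Sertoli-like cells. It was 2.63 and 2.05 in testis Sertoli-like cells, so the groups differed by 5.76. The log2 ratio of Ezr to Cldn3 stood at 5.91 and 5.53 for TOs and at -2.27 and -1.81 for testes, and the groups differed by 7.76. In testes Ezr thus stood below Cldn3 and in TOs above it. Both differences were larger than the spread between replicates (SD 0.266 to 0.412). The exact two-sided permutation test gave p = 0.333 for each, the smallest p that 2 against 2 libraries allow. These genes were chosen with earlier results of these data known, so the ratios restate the changes above and give no separate support. Over 12 alternatives the differences ran from 3.59 to 6.92 and from 5.69 to 8.93, with the lowest values from own marker scores and the highest from the largest Sertoli cluster alone, and a pseudocount of 5 CPM gave 4.72 and 6.49.

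Shares of cells with a UMI were compared after each cell was thinned to 1500 UMIs. A Cldn3 UMI was found in 0.417% (exact Clopper-Pearson 95% interval 0.153% to 0.905%) and 0.32% (0.0387% to 1.15%) of TO Sertoli-like cells and in 10.6% (7.55% to 14.4%) and 5.26% (1.96% to 11.1%) of testis Sertoli-like cells. The intervals cover counting error only. In Leydig-like cells, which should lack Cldn3, the TO libraries gave 0.232% and 0.0627% and the testis libraries 0.351% and 0%, where 0 of 337 cells allow a share of up to 0.89%. By level, TO Sertoli-like cells had 2.61 and 2.38 CPM of Cldn3 and TO Leydig-like cells 0.38 and 0.315 CPM. Median depths were 10276 and 11992.5 UMIs in TO Sertoli-like cells, 6829 and 9845.5 in testis Sertoli-like cells, 10669 and 12316 in TO Leydig-like cells and 6161 and 9829 in testis Leydig-like cells, and 16 and 7 TO Sertoli-like cells were too shallow to be thinned. Without thinning, a Cldn3 UMI was found in 1.24% and 1.58% of TO and in 35.1% and 30.7% of testis Sertoli-like cells.

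Cldn11 was found in most TO Sertoli-like cells, 78.2% and 68.1% (thinned), and in 48.4% and 37.7% of testis Sertoli-like cells. Ezr was found in 25.9% and 20.9% of TO and in 2.36% and 1.75% of testis Sertoli-like cells. The testis Ezr share was near or below that of testis Leydig-like cells (2.28% and 9.79%) and testis macrophage-like cells (4.76% and 6.21%). Jam2 was found in 29.9% and 29.7% of TO and 14.2% and 20.2% of testis Sertoli-like cells, and Jam3 in 39.9% and 48.1% of TO and 17.7% and 32.5% of testis Sertoli-like cells. Unthinned, Cldn11 was found in 95.1% and 96.7% of TO and 91.2% and 90.4% of testis Sertoli-like cells, and Ezr in 77.7% and 75.0% of TO and 10.6% and 18.4% of testis Sertoli-like cells. The groups did not overlap for any of these 5 genes, Cldn3 included, and the exact permutation p was 0.333 for each. The shares of Ocln, F11r and Gja1, which were not called by level, did not overlap either. Shares were not computed over all genes. By level, 31.6% of all genes tested in Sertoli-like cells were higher and 40.5% lower in TOs without overlap.

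**Figure D2:**
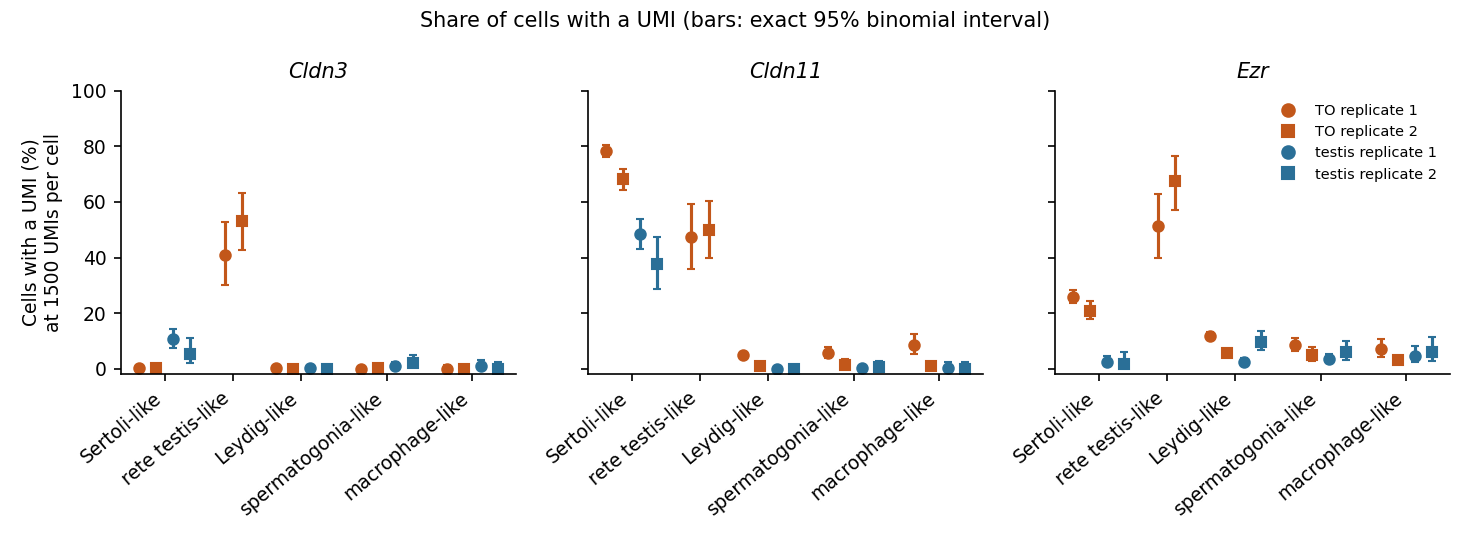
Share of cells with at least 1 UMI of Cldn3, Cldn11 and Ezr, with each cell thinned to 1500 UMIs, by library in 5 cell types and bars are exact 95% binomial intervals. Cldn3 reached 41.0% and 53.1% in TO rete testis-like cells and stayed below 0.5% in TO Sertoli-like cells.

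Sertoli-like cells fell into 3 clusters. The largest held 1678 TO and 426 testis cells, and in it Cldn3 was at 0.578 and 0.633 CPM in TOs and at 82.8 and 81.4 CPM in testes. Another cluster, led by Wfdc18, Edn1 and Myoz2, held 238 TO cells and 1 testis cell. In it Cldn3 was at 17.8 and 16.6 CPM, and it supplied 43 of the 54 Cldn3 UMIs of TO Sertoli-like cells, from 20 of its cells. Tjp1 was at 169 and 182 CPM there, against 466 and 487 CPM in TO cells of the largest cluster, and Gja1 was at 37.9 and 30.6 CPM. The smallest cluster, of low depth (a median of 1720.5 to 2262.5 UMIs per cell in the 3 libraries with at least 10 of its cells), held 172 TO and 26 testis cells, had 0 Cldn3 UMIs in both conditions and had Tjp1 at 1242 and 1507 CPM in TOs. With the largest cluster alone, the log2 fold change of Cldn3 was -6.93 (edgeR adjusted p = 3.89e-05), but Cldn3 was then not counted as called because its CPM in the other TO cells was more than 5 times higher.

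Cldn3 was not lost from the TO libraries as a whole. TO rete testis-like cells had 445 and 726 CPM of Cldn3, above the 79.3 to 81.2 CPM of testis Sertoli-like cells. They were 0.816% and 1.12% of TO cells and held 77.1% and 93.1% of the Cldn3 UMIs of the kept cells, 232 of 301 and 637 of 684. In testes, Sertoli-like cells held 68.0% and 52.5% of Cldn3 UMIs.

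**Figure D3:**
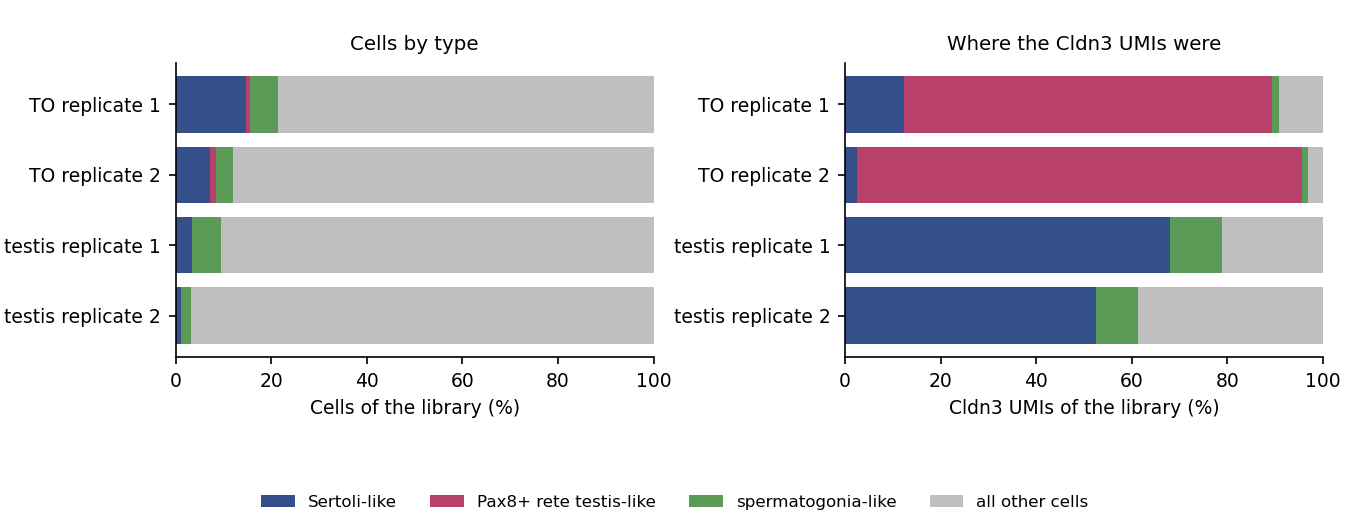
Share of cells (left) and of Cldn3 UMIs (right) that fell to Sertoli-like, rete testis-like, spermatogonia-like and all other cells in each library, in percent. In TOs the rete testis-like cells are a thin slice of the cells and hold 77.1% and 93.1% of Cldn3 UMIs.

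The same cells carried the highest Ezr level of any TO type, 753 and 961 CPM, and Cldn11 at 592 and 461 CPM. Of their thinned cells, 41.0% and 53.1% had a Cldn3 UMI, 51.3% and 67.3% an Ezr UMI and 47.4% and 50.0% a Cldn11 UMI, so all 3 genes were found in this type. In a separate thinning, Ezr was found in 57.6% and 77.6% of the cells with a Cldn3 UMI and in 44.4% and 42.9% of the others, and Cldn11 in 54.5% and 59.2% of the cells with a Cldn3 UMI and in 53.3% and 34.7% of the others. F11r was at 142 and 144 CPM, and Gja1, at 5.75 and 2.28 CPM, and Tjp1, at 97.8 and 87.8 CPM, were low beside Sertoli-like cells. The name rests on the rete markers Pax8 (378 and 436 CPM), Emx2 (144 and 163 CPM) and Krt18 (121 and 61.6 CPM), while Krt7 had 1 UMI in each library and Cdh16 had 0 and 2. These cells also had Sertoli markers, Wt1 at 796 and 464 CPM and Sox9 at 247 and 198 CPM, with Amh at 0, and the endothelial marker Kdr at 196 and 92.4 CPM, with Pecam1 and Flt1 at 0. They shared a cluster with the testis endothelial-like cells and were named apart from them by a rule set after the clusters had been seen. Since no testis library held such cells, they were not compared between conditions.

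Cldn5 was a gene of testis endothelial-like cells. It had 3194 and 3227 CPM there, 2082 and 1908 UMIs, of 2145 and 1955 in the 2 testis libraries. The next type, peritubular myoid-like cells, had 9.62 and 1.45 CPM. TOs held 1 and 3 Cldn5 UMIs in all kept cells. Endothelial-like cells also carried Tjp1 (316 and 387 CPM), F11r (158 and 117 CPM), Jam2 (103 and 112 CPM) and Gja1 (99.7 and 105 CPM), and the levels of Jam2 overlapped those of testis Sertoli-like cells. Cldn3 and Cldn11 had 1 and 0 UMIs each in endothelial-like cells.

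**Figure D4:**
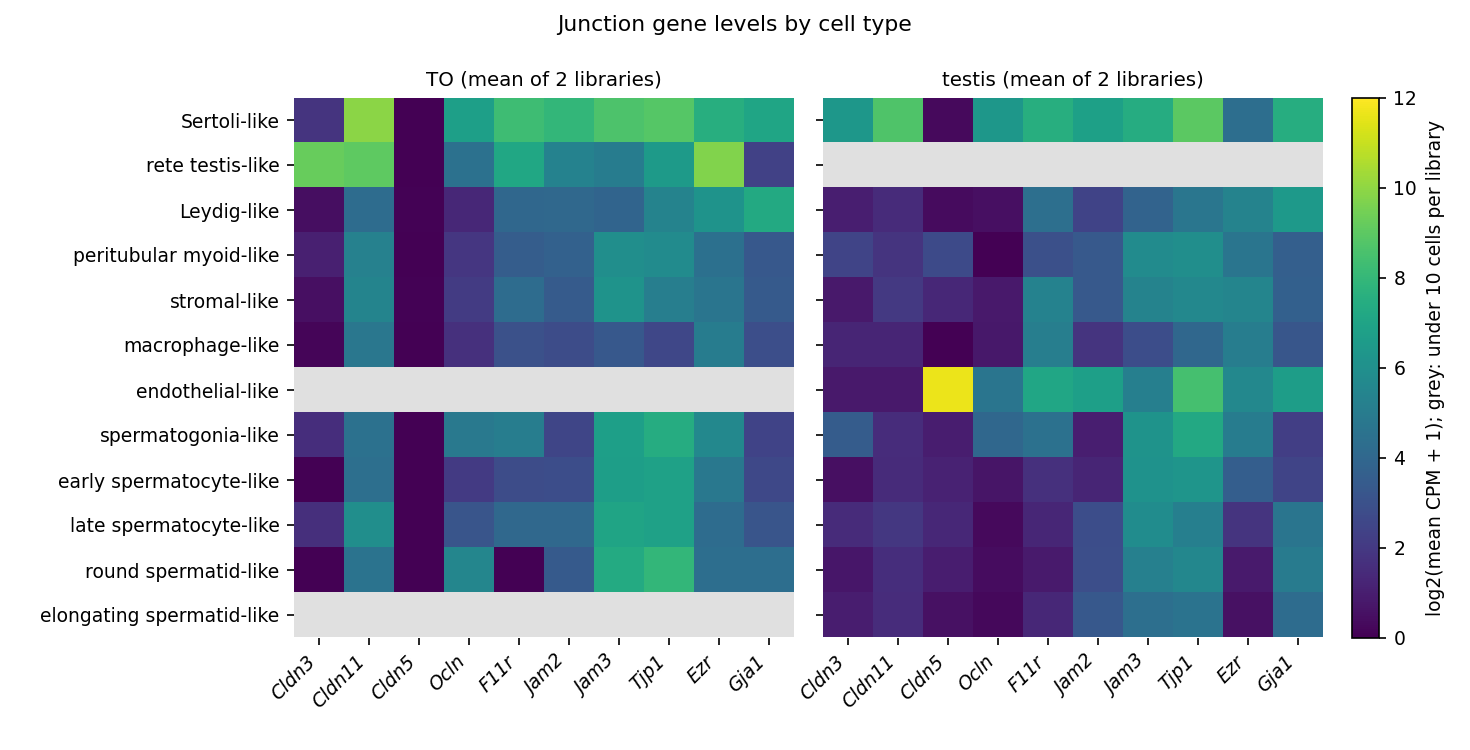
Level of the 10 genes in each cell type, as log2 of the mean CPM of 2 libraries plus 1, for TOs (left) and testes (right), and grey marks types with under 10 cells in a library. Cldn11 is highest in the Sertoli-like row in both panels, with the rete testis-like row next in TOs. Cldn3 is highest in the Sertoli-like row in testes and in the rete testis-like row in TOs.

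Across types, Sertoli-like cells ranked first for Cldn11, Ocln, Tjp1, Jam2, Jam3 and F11r in both conditions, by means of 2 libraries over 10 types in TOs and 11 in testes. For Cldn11, Ocln, Tjp1, Jam3 and F11r the lowest Sertoli library stood above every library of the next type in both conditions. For Jam2 in testes, Sertoli-like and endothelial-like cells did not differ beyond their spread. Gja1 was led by Leydig-like cells in TOs (152 and 155 CPM) and by Sertoli-like cells in testes, where Leydig-like cells had 76.4 and 98.6 CPM. Ezr was led in testes by endothelial-like, stromal-like and Leydig-like cells, whose libraries overlapped, at 25.3 to 56.4 CPM.

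Germ cells carried Jam3 and Tjp1, and spermatogonia-like cells also carried Ezr. Jam3, which binds Jam2 of Sertoli cells in spermatid adhesion, was at 104 and 111 CPM in TO and 72.4 and 67.0 CPM in testis spermatogonia-like cells (log2 fold change 0.54 ± 0.18, edgeR adjusted p = 0.0595), and at 113 and 99.6 CPM in TO and 52.4 and 83.9 CPM in testis early spermatocyte-like cells. Tjp1 was at 201 and 139 CPM in TO and 116 and 186 CPM in testis spermatogonia-like cells, which overlapped. Ezr was at 51.2 and 42.3 CPM in TO and 28.3 and 35.8 CPM in testis spermatogonia-like cells, above the 16.1 and 22.0 CPM of testis Sertoli-like cells, and these cells held 20.6% and 9.42% of the Ezr UMIs of the testis libraries. Later testis germ cells had little Ezr. It was at 1.70 and 3.34 CPM in late spermatocyte-like, 0.387 and 1.20 CPM in round spermatid-like and 0.320 and 0.575 CPM in elongating spermatid-like cells. Cldn3 was detected in spermatogonia-like cells, at 0.872 and 3.12 CPM in TOs and 9.87 and 10.7 CPM in testes.

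Outside Sertoli-like cells, 53 pairs of a gene and a cell type were tested in 8 types, and 1 was called, against 12.5% of all pairs of a gene and a type called in either direction. This was Cldn3 in spermatogonia-like cells, lower in TOs by a log2 fold change of -2.53 ± 0.59 (edgeR adjusted p = 0.00851), where 8.58% of all genes were called lower. It rests on 4 and 9 UMIs in TOs, and different clusters held most of these cells in the 2 conditions, 1 with 372 and 143 testis cells but 1 and 0 TO cells, another with 339 and 221 TO cells but 58 and 8 testis cells. The call was lost in 10 of 18 alternatives, among them without TO replicate 1 (-1.72, edgeR adjusted p = 0.0894) and without testis replicate 1 (-2.54, edgeR adjusted p = 0.0347). Another 2 pairs passed both thresholds but were not counted because other cells held at least 5 times as much. F11r in macrophage-like cells was at 8.57 and 5.37 CPM in TOs and 33.5 and 34.2 CPM in testes (log2 fold change -2.11 ± 0.45, edgeR adjusted p = 0.00325), where 16.1% of all genes were lower past the thresholds. Cldn11 in spermatogonia-like cells was at 33.1 and 9.02 CPM in TOs and 2.96 and 0.761 CPM in testes (3.16 ± 0.70, edgeR adjusted p = 0.00589), where 0.825% were higher past them. Without TO replicate 1 this value was 2.01 (edgeR adjusted p = 0.066), and without testis replicate 1 it was 4.72 (edgeR adjusted p = 1.56e-05).

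The fitted Cldn11 difference was positive in the 6 other types in which it was tested, and 1 of them passed the thresholds. In all 6, the remaining cells of TOs or of testes had at least 5 times as much Cldn11, so none was counted as called. In round spermatid-like cells the value rests on 1 and 0 UMIs in TOs, and the groups overlapped. The median log2 fold change over all genes tested ran from -0.92 to 0.07 in these types. In Leydig-like cells it was at 29.96 and 5.30 CPM in TOs and 3.06 and 0.591 CPM in testes, and in stromal-like cells at 71.1 and 13.6 CPM in TOs and 3.72 and 2.36 CPM in testes. Sertoli-like cells made up 14.8% and 7.27% of TO cells and 3.44% and 1.20% of testis cells. The 8 Sertoli markers moved the same way in stromal-like cells, with summed levels of 526 and 254 CPM in TOs and 118 and 110.1 CPM in testes, and in spermatogonia-like cells, with 247 and 107 CPM in TOs and 52.3 and 38.8 CPM in testes, while in Leydig-like cells the sums were 306 and 220 CPM in TOs and 258 and 329.5 CPM in testes. The Leydig sums were mostly Aard (197 and 156 CPM in TOs, 223 and 313 CPM in testes). Of the other 7 Sertoli markers, 6 were higher in TO Leydig-like cells without overlap, which held for 35.3% of all 15497 genes tested there. Among them were Sox9 (9.44 and 5.04 CPM in TOs, 0.556 and 0.886 CPM in testes) and Rhox8 (44.0 and 15.1 CPM in TOs, 12.5 and 6.79 CPM in testes). Another, Fshr, was near the floor (0.977 and 0.997 CPM in TOs, 0.833 and 0.295 CPM in testes). The part of these marker differences in the Cldn11 differences was not tested.

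Whether the TO effect differed between Sertoli-like cells and another type was tested directly, with the library as a block, in 45 pairs of a gene and a type. Of these, 10 were called at an adjusted p below 0.01, and they involved Ezr, F11r, Jam3 and Cldn3. No gene was left out here for its level in other cells, and F11r in macrophage-like cells (10.2 times) and Cldn3 in peritubular myoid-like cells (7.02 times) were past that limit. Ezr rose more in Sertoli-like cells than in each of the 5 types tested. The difference was 2.55 ± 0.43 against Leydig-like (edgeR adjusted p = 0.00606), 3.31 ± 0.41 against macrophage-like (1.59e-07), 3.71 ± 0.32 against peritubular myoid-like (3.09e-09), 4.203 ± 0.309 against stromal-like (3.83e-06) and 3.16 ± 0.27 against spermatogonia-like cells (1.81e-08). The difference against Leydig-like cells was not called without testis replicate 2 (2.19, edgeR adjusted p = 0.0134) or without Harmony (2.39, edgeR adjusted p = 0.0118). Among all genes, 5.42%, 7.64%, 14.3%, 8.16% and 16.6% were called in these pairs, in the same order.

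**Figure D5:**
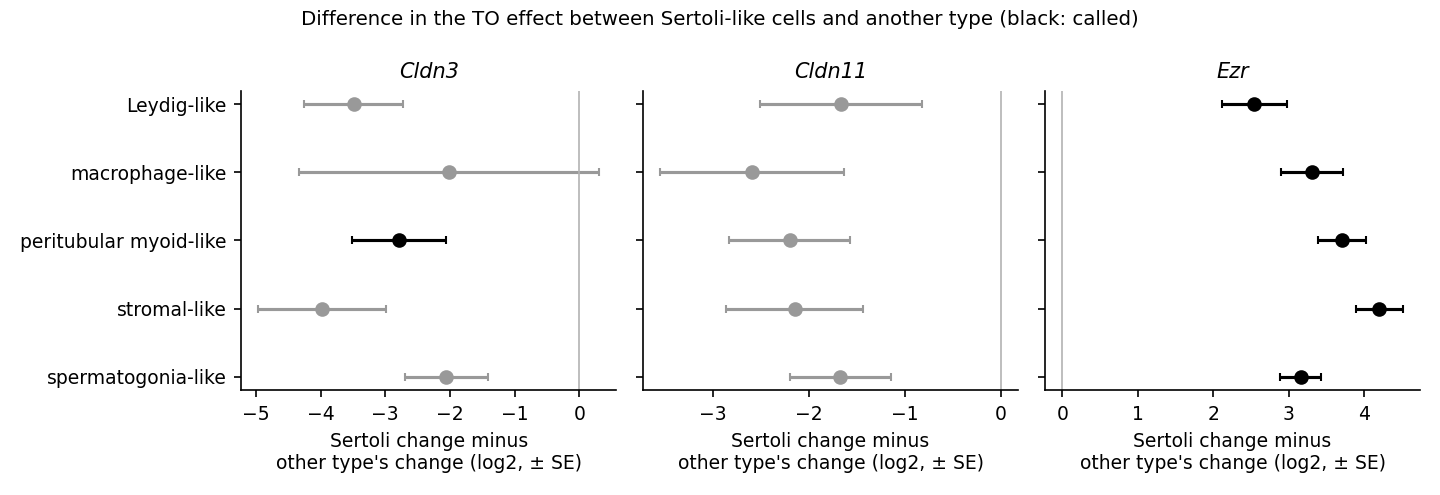
Change in TOs in Sertoli-like cells minus the change in another type (log2, with SE) for Cldn3, Cldn11 and Ezr, black where called. All 5 Ezr values are called and positive, and the Cldn11 values lie below 0 without a call.

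F11r differed against macrophage-like (3.03 ± 0.41, edgeR adjusted p = 1.12e-06) and stromal-like cells (1.92 ± 0.29, 0.000691). In stromal-like cells it was at 20.9 and 15.3 CPM in TOs and 34.97 and 44.1 CPM in testes (log2 fold change -1.02, edgeR adjusted p = 0.0267). Without testis replicate 2 the second of these was lost (1.46, edgeR adjusted p = 0.0227). Jam3 differed against peritubular myoid-like (1.27 ± 0.26, edgeR adjusted p = 0.000649) and spermatogonia-like cells (1.10 ± 0.23, 0.000845), and both were lost without TO replicate 2 (0.82 and 0.53) and without testis replicate 1 (0.95 and 0.66). Cldn3 fell more in Sertoli-like than in peritubular myoid-like cells (-2.78 ± 0.72, edgeR adjusted p = 0.00577), a call that 8 of 11 alternatives did not keep, among them those without TO replicate 1 (-2.56, edgeR adjusted p = 0.0749), testis replicate 1 (-3.05, 0.0372) and testis replicate 2 (-2.77, 0.0147). For Cldn11 the differences ran from -1.67 to -2.59 with no call (edgeR adjusted p = 0.0122 to 0.217).

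Other junction genes were taken from 8 lists of 115 genes, of which 70 were tested in Sertoli-like cells. Of these, 14 were called higher and 4 lower in TOs, against 6.06% and 10.2% of all genes tested, with a median log2 fold change of 0.60 against 0.02 over all genes. Among membrane proteins, 2 of 4 claudins tested and 3 of 4 other tight junction proteins were called higher and none lower. The lists held 19 claudins and 8 other proteins, and the rest did not pass the filter on low counts. A gene low in testes could pass it through TOs, as with Cxadr (35.6 and 27.5 CPM in TOs, 4.34 and 0.955 CPM in testes). These counts therefore do not show a rise of the whole class. The lists were also written with earlier results of these data known. Ildr2, an angulin-family protein of tricellular junctions, was at 117 and 143 CPM in TOs and 5.21 and 0.955 CPM in testes (log2 fold change 5.21 ± 0.39, edgeR adjusted p = 0.000117). Cldn23, a further claudin, was at 52.8 and 54.0 CPM in TOs and 8.68 and 13.4 CPM in testes (2.48 ± 0.26, edgeR adjusted p = 0.000377).

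Of 18 plaque and polarity genes tested, 3 were called higher and 2 lower, and for the latter this is about the share of all genes called lower (10.2%). Among them were 2 paralogous scaffolds of the membrane-associated guanylate kinase family. Magi3 was at 105 and 79.1 CPM in TOs and 26.1 and 18.2 CPM in testes (log2 fold change 2.13 ± 0.24, edgeR adjusted p = 0.00055), and Magi1 was at 115 and 76.5 CPM in TOs and 323 and 293 CPM in testes (-1.56 ± 0.21, edgeR adjusted p = 0.00115). Amotl2, an angiomotin-like scaffold, was at 54.9 and 72.8 CPM in TOs and 7.82 and 15.3 CPM in testes (2.73 ± 0.34, edgeR adjusted p = 0.000749).

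Of 9 tested relatives and partners of ezrin, 2 were called higher and 2 lower, beside 6.06% and 10.2% of all genes. Rock2, a kinase that acts on actin, was at 166 and 173.5 CPM in TOs and 44.3 and 81.2 CPM in testes (log2 fold change 1.63 ± 0.26, edgeR adjusted p = 0.00225). Nf2, which encodes merlin, a relative of ezrin, was at 47.2 and 42.6 CPM in TOs and 113 and 83.1 CPM in testes (-1.02 ± 0.20, edgeR adjusted p = 0.00581), a call lost without any 1 of TO replicate 1, TO replicate 2 or testis replicate 1 (-1.06, -0.98 and -0.75). In the other lists, 2 of 12 adherens junction genes, 1 of 3 gap junction genes and 1 of 18 actin genes of the ectoplasmic specialization were called higher, the last a share near that of all genes. None of these was called lower, and neither of 2 desmosome genes was called. Of the 8 list genes left out because other cells held more, Nectin3, Pard3 and Pkp2 passed both thresholds. Nectin3, an adhesion molecule, was singled out after its values were seen. It was at 9.46 and 10.6 CPM in TOs and 68.2 and 67.8 CPM in testes (-2.64 ± 0.21, edgeR adjusted p = 0.00014), with 5.05 times as much in other cells.

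The genes whose pattern was most like the 3 contrast genes were ranked by Pearson correlation of log2(CPM + 1) over 42 sums of a type in a library, among 12544 genes. These sums share libraries and depth, so the values are a description. For Cldn3 they were Zcchc18 (r = 0.86), Calr4 (0.85) and Fermt1 (0.82). Calr4 was at 26.1 and 25.3 CPM in TO and 54.7 and 94.6 CPM in testis Sertoli-like cells, and at 419.8 and 780.0 CPM in TO rete testis-like cells. For Cldn11 they were Tmem184a (0.93), Tmem114 (0.93) and the Sertoli marker Rhox8 (0.91), which was at 463 and 405 CPM in TO and 521 and 418 CPM in testis Sertoli-like cells, without the rise of Cldn11. For Ezr they were Tmem238 (0.905), Twsg1 (0.87) and Wbp1l (0.87).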

How the data were processed

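UMIs per gene and barcode were counted by the authors with Cell Ranger 7.1.0 (mm10, per the submitters' processing notes), and the deposited counts are raw, before any doublet removal, filter or normalization. The annotation is not given in the sources used here. Coordinates are from GENCODE vM21 (GRCm38). The 10 genes and all lists were chosen with earlier results of these data known.

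The Scrublet scores of scanpy 1.11.5 were used to remove 0.8% of barcodes per 1000, and kept cells had between 1000 and 5000 genes, no more than 20000 UMIs and a mitochondrial share up to 10%. Cells were clustered on 2000 variable genes without the 10 genes, with a Harmony routine written in numpy (theta 2) and Leiden (20 neighbours, resolution 1). Clusters were named from at least 3 markers, and somatic clusters whose TO and testis parts (at least 20 cells each) earned different names were split after the clusters had been seen. Names may differ from those of the study.

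UMIs were summed per library and type and tested with edgeR 4.0.16 (TMM, filterByExpr, Benjamini-Hochberg adjustment over all genes tested) in R 4.3.3, in types with at least 10 cells in every library. SEs were taken from the fold change and the F statistic. Of genes changed 16-fold in simulated Sertoli sums (13902 genes tested), 100% were recovered, and of those changed 4-fold 97%, with 3 false calls. For the difference between Sertoli and Leydig cells (15680 genes tested), 99% and 64% were recovered, with 2 false calls. The simulation changed only well-expressed genes, gave every gene the same spread and held no background RNA or mixing of types. Its figures therefore do not measure errors from those sources. DESeq2 1.42.0, other filters, scalings, cell names and left-out libraries were the alternatives. All 10 genes were named in every type, and from the other lists up to 5 called genes in each direction with the largest fold and at least 50 CPM in all libraries of a condition, and for Cldn3, Cldn11 and Ezr each the 3 genes with the highest correlation among genes reaching 50 CPM.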

Additional observations from a re-analysis of the deposited data

Results flagged for a closer look

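The change in TOs against testes differed between Sertoli-like cells and another cell type for 10 of 45 tested pairs of a gene and a type. This was by edgeR's test of the difference itself, with the library as a block and Benjamini-Hochberg adjustment over all genes. Of all genes, 5.42% (against Leydig-like cells) to 16.6% (against spermatogonia-like cells) were called in the same tests. For Ezr the Sertoli effect minus the other effect, on the log2 scale, was 2.55 against Leydig-like, 3.31 against macrophage-like, 3.71 against peritubular myoid-like, 4.203 against stromal-like and 3.16 against spermatogonia-like cells. For F11r it was 3.03 against macrophage-like cells, where other TO cells had 10.2 times as much, and 1.92 against stromal-like cells. For Jam3 it was 1.27 against peritubular myoid-like and 1.10 against spermatogonia-like cells. For Cldn3 it was -2.78 against peritubular myoid-like cells, where other TO cells had 7.02 times as much. That call was not kept in 8 of 11 alternatives. Groups of 2 libraries were too small to look for single libraries that stand apart.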

How the results depend on the processing

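The 5 calls among the junction genes in Sertoli-like cells numbered 2 to 6 over 19 alternatives. They fell to 3 when each cell was named by its own marker score, to 2 (Cldn3 and Ezr) with background RNA subtracted and to 3 with sums thinned to the smallest library, and to between 4 and 5 when 1 library was left out. In TOs, spermatid UMIs were too few to estimate a background, so it was subtracted from testis libraries only. Named by their own marker score, Sertoli-like cells gave a Cldn3 log2 fold change of -2.14 (edgeR adjusted p = 0.02). With thinned sums, with only the largest Sertoli cluster (added after seeing the data) and with genes left out from 2 times, Cldn3 passed both thresholds but was not counted, because other cells held more of it. All genes called, 2264, numbered 120 with background subtracted, 1264 with thinned sums, 1104 with genes left out from 2 times, 4566 at an adjusted p below 0.05 with no fold limit, and 1344 (without testis replicate 1) to 2424 with 1 library left out. In the other types, the 1 call became 5 with no doublets removed, 2 with each cell's own score, 0 with thinned sums, 0 with RLE size factors, 0 with genes left out from 2 times, 3 with no gene left out, 5 at 0.05 with no fold limit, and 0 (without TO replicate 1) to 2 (without testis replicate 2) with 1 library left out. The 10 calls for a different TO effect became 21 with every gene tested and were 7 to 15 with 1 library left out. Tjp1 changed sign, with no call, at 0.11 without upper limits, 0.079 in the largest cluster, 0.15 with every gene tested and -0.28 to 0.29 with 1 library left out (0.02 without TO replicate 1, 0.29 without testis replicate 2). The ratios and shares kept their direction in each alternative. The cause of these changes was not tested.

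Replicates share only a number between TOs and testes. Their deviations correlated at 0.16 in Sertoli-like cells, a value from 1 contrast of 2 pairs. With the replicate block, 2930 genes were called in Sertoli-like cells, 5 of them junction genes, 2 calls were made in other types and Tjp1 stood at 0.0099, which turned its sign but made no call.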
